A study of Homo sapiens with 8 samples.

Results

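Albumin, alpha-fetoprotein and a set of genes of mature liver, fetal liver and liver cancer were examined in ribosome profiling libraries from cells labelled HepG2. The members were 7 genes given by name: ALB, AFP, TTR, GPC3, IGF2, IGF2BP1 and IGF2BP3. All 7 were among the 60718 genes of the input count table, and 2 of them, IGF2BP1 and IGF2BP3, were among the 11244 genes of the table that also held footprints. HepG2 is an established human hepatoma line. METTL5-WT cells carried intact METTL5, the enzyme that methylates 18S rRNA, and in METTL5-KO cells this gene had been disrupted by CRISPR-Cas9 with guides placed to cut out early exons. All cells received cycloheximide at 100 ug/mL for 7 minutes, which holds ribosomes on the message. One portion of each lysate gave input RNA and the rest gave ribosome-protected fragments (RPF), in 4 groups of 2 replicates. Per the study, cells of both genotypes were grown from isolated clones. The clone behind a replicate is not given, so clone and genotype cannot be told apart, and p-values measure the spread between these samples.

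Albumin and transthyretin are carrier proteins that hepatocytes secrete into the blood. AFP is the albumin relative of the fetal liver. It lies beside ALB, is shut down after birth and returns in many hepatomas, as does GPC3, a heparan sulfate proteoglycan of the cell surface. IGF2 is a fetal growth factor, transcribed from an imprinted locus that it shares with the noncoding RNA H19. IGF2BP1 and IGF2BP3 are RNA-binding proteins that hold and stabilize target messages, and both are made in the embryo and in tumours but little in adult liver. HepG2 is known for making albumin, AFP, transthyretin and apolipoproteins, so these genes also test whether the libraries match their label.

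They did not match it in this respect. Input libraries held 10710226 to 15307257 counts over all genes of the count table, and the RPF libraries 3970779 to 9255921 reads over the 11244 genes of the footprint table alone. Of 8 genes that define the hepatocyte lineage (HNF4A, APOA1, APOA2, APOB, FGA, FGB, SERPINA1 and TF), 7 had at most 3 reads in every input library, and the exception, APOB, had 4 and 2 reads in METTL5-WT against 0 and 0 in METTL5-KO. Summed over the 8, METTL5-WT had 9 and 4 reads against 2 and 4 in METTL5-KO. None of the 8 was in the footprint table, which holds only genes with at least 1 read in every library. Each had 0 reads in some input library, so this adds nothing to the input counts. The near absence of input reads was shared by both genotypes. Among 9 markers of other cells, 5 had at most 3 reads in every input library. They were PTPRC, CD68 and PECAM1 of blood and endothelium, and KRT19 and COL1A2. KRT7, a keratin of ducts and other simple epithelia, had 9810 and 8808 reads in METTL5-WT against 9231 and 12259 in METTL5-KO. KRT19, another keratin of the list, had 0 and 0 reads in METTL5-WT against 0 and 1 in METTL5-KO. COL1A1, a collagen chain, had 429 and 484 reads in METTL5-WT against 666 and 937 in METTL5-KO. COL1A2, another collagen chain, had 1 and 0 reads in METTL5-WT against 0 and 0 in METTL5-KO. Summed reads of the 9, most of them from KRT7, were 10305 and 9347 in METTL5-WT against 9960 and 13274 in METTL5-KO. The label was therefore kept only as a name. METTL5 itself had 490 and 542 input reads in METTL5-WT against 208 and 151 in METTL5-KO, with 158 and 226 against 41 and 21 RPF reads, so the genotype labels held.

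The bases before the start of ALB, AFP and IGF2BP3 are shown because they set the letters of members near 0 beside those of a member that was well covered. The promoter table of RefSeq (GRCh38.p14) held 3 of the 7 members. Each sequence is the 250 bases upstream of the RefSeq start, 5′ to 3′ on the gene's strand. ALB is at chr4:73404037-73404286 on the plus strand, AFP at chr4:73435971-73436220 on the plus strand and IGF2BP3 at chr7:23470492-23470741 on the minus strand. Capitals mark the TATA box and the CCAAT box, a CCAAT box on the opposite strand being read as ATTGG.
ALB: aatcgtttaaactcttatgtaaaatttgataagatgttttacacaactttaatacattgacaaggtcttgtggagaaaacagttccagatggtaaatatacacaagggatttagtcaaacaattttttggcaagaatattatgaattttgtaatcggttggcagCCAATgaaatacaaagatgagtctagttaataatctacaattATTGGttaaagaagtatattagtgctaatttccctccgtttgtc
AFP: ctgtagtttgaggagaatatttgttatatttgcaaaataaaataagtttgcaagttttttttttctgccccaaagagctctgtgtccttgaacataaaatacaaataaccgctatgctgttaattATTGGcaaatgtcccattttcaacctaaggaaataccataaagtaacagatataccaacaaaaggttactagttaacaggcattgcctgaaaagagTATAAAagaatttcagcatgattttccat
IGF2BP3: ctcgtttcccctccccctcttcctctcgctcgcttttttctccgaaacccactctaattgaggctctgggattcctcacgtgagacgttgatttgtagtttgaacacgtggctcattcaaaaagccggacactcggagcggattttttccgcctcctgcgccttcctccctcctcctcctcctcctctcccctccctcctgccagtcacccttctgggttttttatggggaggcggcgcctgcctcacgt
Both motifs were searched on both strands, and no match overlapped another. A TATA box (TATAAA, in 10.7% of 35116 promoters of this length) began 29 bases before the AFP start. ALB had a CCAAT box (CCAAT, in 32.0% of promoters) from 86 bases before its start and another, on the opposite strand, from 44 bases before it. AFP had a CCAAT box on the opposite strand from 125 bases before its start. Neither motif was in the IGF2BP3 window. The windows also differed in CG dinucleotides, with 3 in ALB, 1 in AFP and 15 in IGF2BP3, against a median of 11 over all promoters. These matches describe letters only.

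ALB and TTR, the products of the mature hepatocyte, were at or next to 0 in every library. ALB (ENSG00000163631.17, chromosome 4, 73397114 to 73421482, hg38, plus strand) had 0 and 0 reads in METTL5-WT against 0 and 1 in METTL5-KO. TTR (ENSG00000118271.12, chromosome 18, 31557009 to 31598833, plus strand) had 0 reads in all 4 libraries. A count of 0 allows a level of up to 0.268 and 0.280 CPM (reads scaled to a common library total) in the METTL5-WT libraries and 0.237 and 0.196 in the METTL5-KO libraries (3 counts, counting error only). Of 19919 protein-coding genes, 15740 (79.0%) had more summed input reads than TTR and 14748 (74.0%) more than ALB. AFM, another albumin family gene, had 0 reads in every library, and GC, which encodes the vitamin D-binding protein, had 1 read in METTL5-KO replicate 1.

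The rest of the mature liver program was alike but for 1 gene. Of 14 mature hepatocyte genes, 12 had at most 3 reads in every input library, among them SERPINA1, TF, FGB and the gluconeogenic gene PCK1. ASGR1, a receptor subunit for desialylated glycoproteins, had 2 and 2 reads in METTL5-WT against 8 and 4 in METTL5-KO. CPS1, the first enzyme of the urea cycle, was the exception, with 11151 and 11102 input reads in METTL5-WT against 9229 and 10819 in METTL5-KO. Reads of CPS1 were thus at least 9229 in each of the libraries in which ALB had at most 1. CPS1 fell in input by 0.51 ± 0.11 on the log2 scale (SE, edgeR adjusted p = 0.00200) and in RPF by 0.56 ± 0.09 (SE, limma adjusted p = 0.000257). The input call was lost without METTL5-WT replicate 1 (adjusted p = 0.120) or replicate 2 (adjusted p = 0.167).

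AFP was the only one of the 5 low members with more than 3 reads in a library. AFP (ENSG00000081051.8, chromosome 4, 73431138 to 73456174, plus strand) had 0 and 0 reads in METTL5-WT against 5 and 9 in METTL5-KO. The level in METTL5-KO was low, at 0.500 CPM over both libraries. This level was 3.66 times the floor of 3 counts over both METTL5-WT libraries, 0.137 CPM. The counting error of the METTL5-KO reads is not included, so the value is no lower bound. In such bulk libraries, fewer cells with a message and less of it per cell cannot be told apart. AFP was below the low-count filter and not tested. With no filter, edgeR gave an adjusted p = 0.0604, which missed the threshold of 0.05, and DESeq2 gave no adjusted p. More reads than the 14 of AFP were found for 12326 protein-coding genes (61.9%).

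GPC3 and IGF2, markers of fetal liver and hepatoma, were also near 0. GPC3 (ENSG00000147257.15, chromosome X, 133535745 to 133985594, minus strand) had 0 and 0 reads in METTL5-WT against 1 and 0 in METTL5-KO. IGF2 (ENSG00000167244.21, chromosome 11, 2129112 to 2141238, minus strand) had 0 reads in all 4 libraries. The value of IGF2 covers only part of the gene: 1835 of its 6259 exon bases (29.3%) are not shared with another gene on the same strand, and reads in shared exons were counted for neither gene. The genes that share exons with IGF2, INS-IGF2 included, held 1 read in all, in METTL5-KO replicate 2. Their counts leave out the shared exons too, so reads in those exons are not known. Neither GPC3 nor IGF2 showed a difference between genotypes that could be detected at this depth, for IGF2 in its unshared exon bases only. Footprints of ALB, AFP, TTR, GPC3 and IGF2 were not analysed here.

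**Figure D1:**
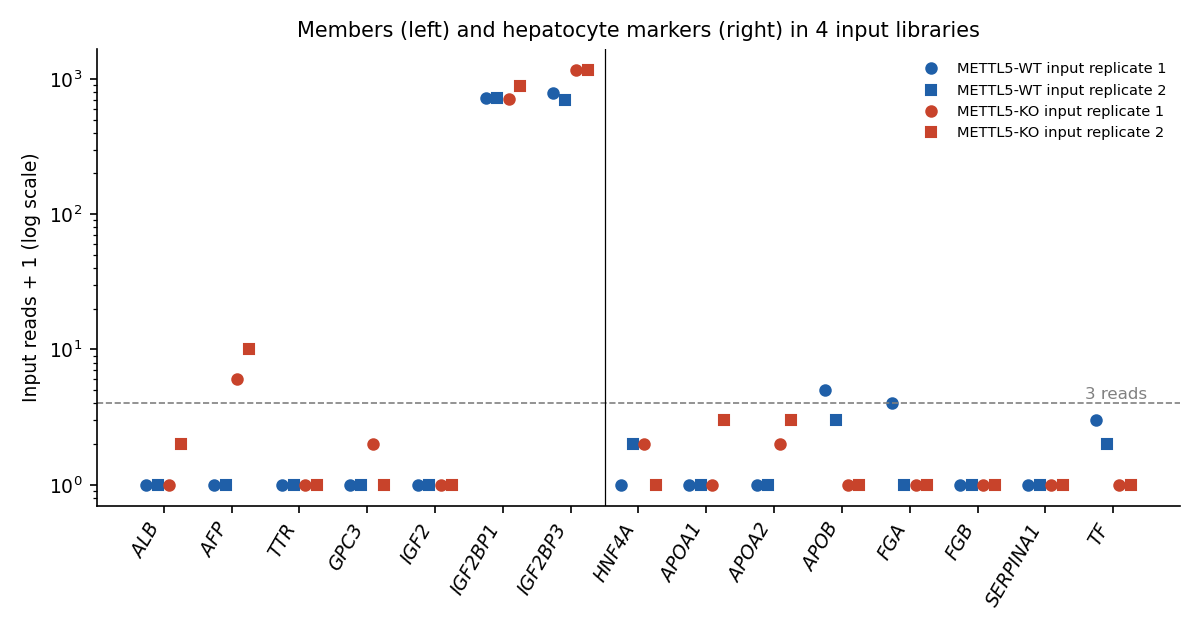
Input reads plus 1 (log axis) of the 7 members, left of the vertical line, and of 8 hepatocyte markers, right of it, in each of the 4 input libraries (blue METTL5-WT, red METTL5-KO, circle replicate 1, square replicate 2). The dashed line marks 3 reads; IGF2BP1 and IGF2BP3 lie between 695 and 1161 reads, and AFP passes the line in METTL5-KO with 5 and 9 reads.

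IGF2BP1 and IGF2BP3 stood apart from the other members. IGF2BP1 (ENSG00000159217.10, chromosome 17, 48997385 to 49056145, plus strand) had 726 and 719 input reads in METTL5-WT against 707 and 887 in METTL5-KO. IGF2BP3 (ENSG00000136231.14, chromosome 7, 23310209 to 23470491, minus strand) had 790 and 695 in METTL5-WT against 1161 and 1159 in METTL5-KO. Only 4169 protein-coding genes (20.9%) had more summed reads than IGF2BP1, and 3401 (17.1%) more than IGF2BP3.

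**Figure D2:**
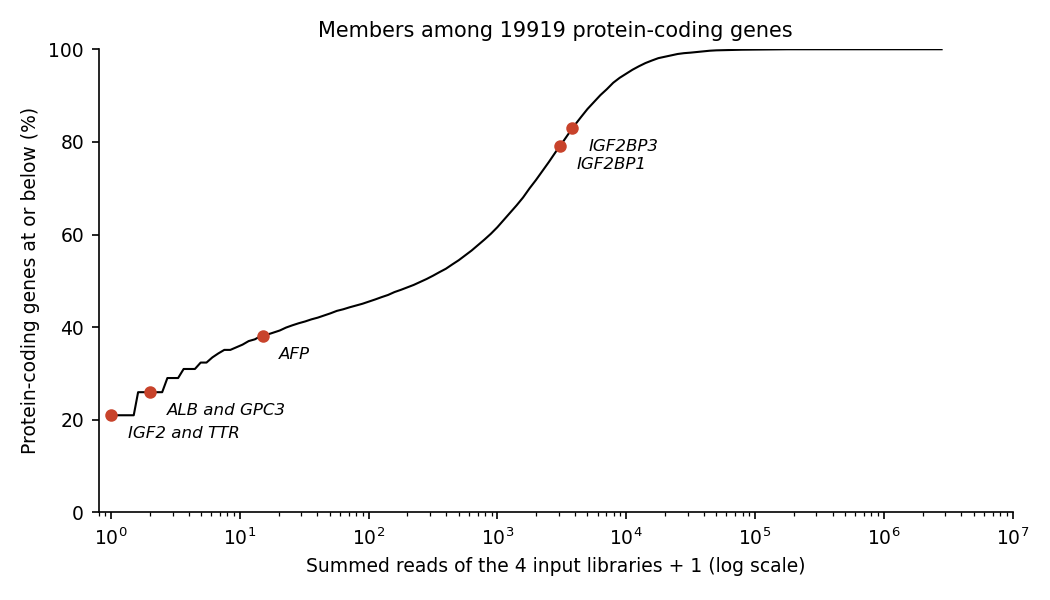
Percent of 19919 protein-coding genes at or below a given number of reads, summed over the 4 input libraries and plus 1 (log axis), with the members as red points. TTR and IGF2 (0 reads), ALB and GPC3 (1) and AFP (14) lie in the lower part of the curve, IGF2BP1 (3039) and IGF2BP3 (3805) in the upper part.

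Levels of these 2 genes can be compared per length. In METTL5-WT input, IGF2BP3 was at 7.93 ± 0.462 CPM per kb of exon (SD, n = 2) and IGF2BP1 at 6.85 ± 0.175. In METTL5-KO input, IGF2BP3 was at 9.80 ± 1.32 and IGF2BP1 at 5.90 ± 0.158 (SD, n = 2). IGF2BP3 was thus the higher in input in both genotypes. Per kb of coding length the METTL5-WT input levels were 38.1 for IGF2BP1 and 39.0 for IGF2BP3, closer together than the spread of the IGF2BP3 replicates. In METTL5-WT footprints the order was the opposite, with IGF2BP1 at 26.9 ± 0.859 CPM per kb of coding length (SD, n = 2) and IGF2BP3 at 19.3 ± 0.940. In METTL5-KO footprints, at 23.4 ± 0.935 for IGF2BP1 and 26.0 ± 5.25 for IGF2BP3, the replicates overlapped. These levels are a description with no test.

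RNA abundance of the 2 genes was compared next, on 14054 genes of which 22.4% were called (edgeR, adjusted p under 0.05, either direction). Neither gene was called. IGF2BP1 had normalized values (reads divided by a library size factor) of 494 and 511 in METTL5-WT against 426 and 445 in METTL5-KO. Both METTL5-KO values lay under both METTL5-WT values, with a log2 difference of -0.22 ± 0.12 (SE, edgeR adjusted p = 0.221). IGF2BP3 had 538 and 494 in METTL5-WT against 700 and 582 in METTL5-KO. Both METTL5-KO values lay above both METTL5-WT values, by 0.30 ± 0.13 on the log2 scale (SE, edgeR adjusted p = 0.0949). Input values of the genotypes did not overlap for 63.3% of the 11240 genes of the footprint table that were tested. The METTL5-KO replicates differed in the size of the IGF2BP3 change, which was 0.43 without METTL5-KO replicate 2 and 0.17 without METTL5-KO replicate 1.

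Footprints rose for IGF2BP3 and were not called for IGF2BP1. Of 11240 genes, 29.3% were called in RPF by limma and 27.7% by edgeR on the recovered reads. IGF2BP3 had 138 and 149 RPF reads in METTL5-WT against 445 and 358 in METTL5-KO, with normalized values of 328 and 299 against 537 and 399. The groups did not overlap, as for 61.4% of all genes of this table in RPF, and METTL5-KO replicate 1 was well above replicate 2. The METTL5-KO RPF libraries were also the deeper over the genes of this table, with 8626705 and 9255921 reads against 3970779 and 4592443 in METTL5-WT, and the part of depth in the result was not tested. The RPF change was 0.56 ± 0.15 (SE, limma adjusted p = 0.0108), and edgeR gave 0.55 with an adjusted p = 0.0101. The limma call rested on single libraries: it was lost without METTL5-WT replicate 2 (0.50, adjusted p = 0.0552) and without METTL5-KO replicate 1 (0.35, adjusted p = 0.149). It was also lost without the variance trend of limma (adjusted p = 0.0702).

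IGF2BP1 had 181 and 219 RPF reads in METTL5-WT against 359 and 364 in METTL5-KO. Its normalized values, 430 and 439 in METTL5-WT against 433 and 406 in METTL5-KO, overlapped between genotypes. The RPF change was -0.05 ± 0.13 (SE, limma adjusted p = 0.791).

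Translation efficiency (TE), the ratio of RPF to input values, was tested as the interaction of genotype and library type. Of 11240 genes, 4.79% were called by limma and 6.82% by edgeR, and neither member was among them. The log2 TE of IGF2BP1 was -0.20 and -0.22 in the METTL5-WT lysates and 0.02 and -0.13 in the METTL5-KO lysates. For IGF2BP3 it was -0.71 and -0.72 in METTL5-WT against -0.38 and -0.54 in METTL5-KO. Both genes had higher log2 TE in both METTL5-KO lysates than in either METTL5-WT lysate, as values of the genotypes did not overlap, in one direction or the other, for 53.1% of all 11240 genes. The differences were 0.15 ± 0.18 for IGF2BP1 (SE, limma adjusted p = 0.653) and 0.26 ± 0.22 for IGF2BP3 (SE, limma adjusted p = 0.516). The IGF2BP3 difference was 0.09 once the trend on GC content was removed. Its coding sequence has 47.3% GC, against 54.8% in IGF2BP1 and a median of 52.3% over the tested genes.

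**Figure D3:**
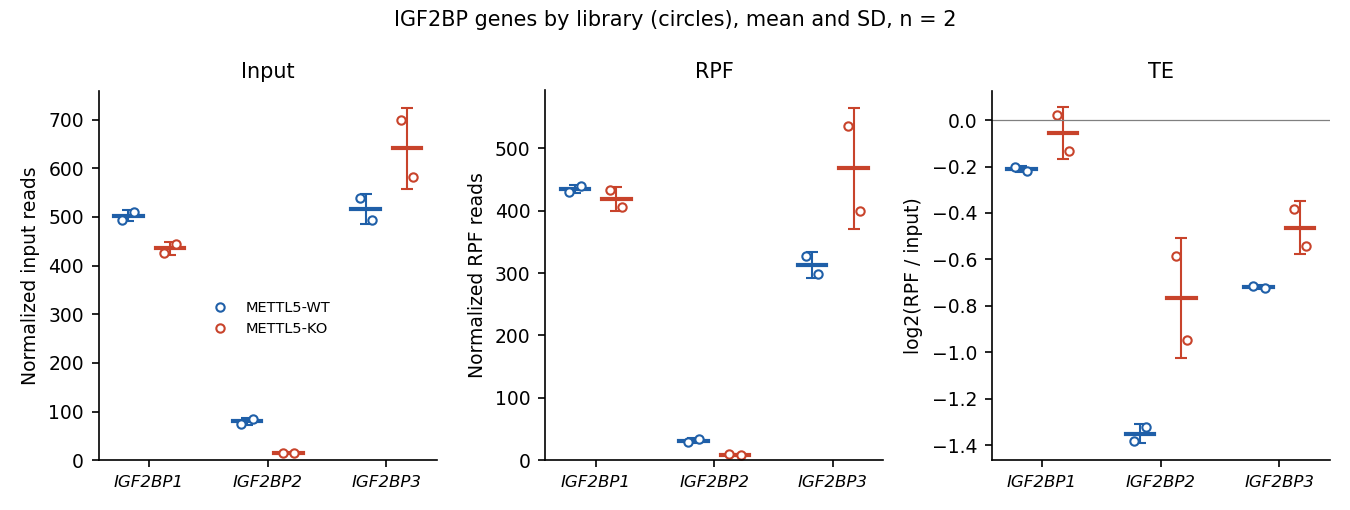
Normalized input reads, normalized RPF reads and log2 TE of IGF2BP1, IGF2BP2 and IGF2BP3 in each METTL5-WT (blue) and METTL5-KO (red) library, as open circles with the mean (thick line) and SD (bar, n = 2). IGF2BP3 RPF values of 537 and 399 in METTL5-KO lie above 328 and 299 in METTL5-WT, and IGF2BP2 is the lowest in input and RPF.

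**Figure D4:**
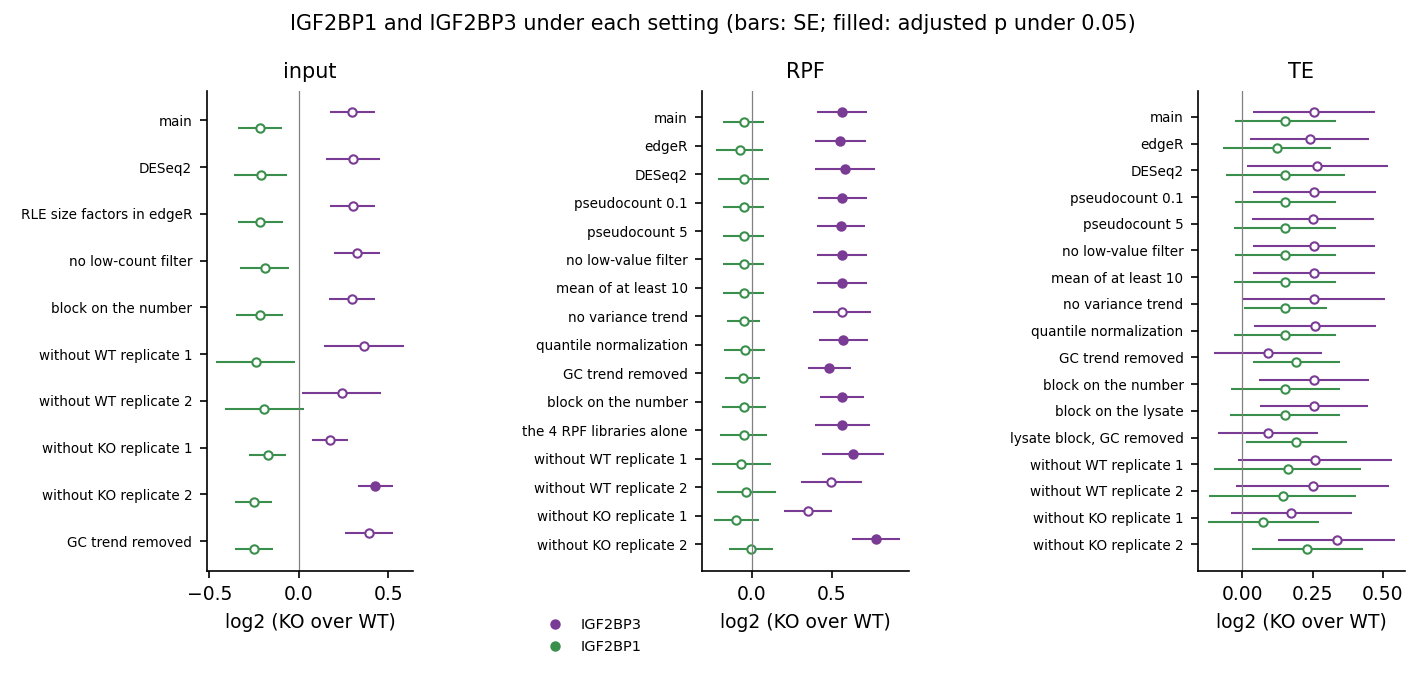
Log2 fold change (METTL5-KO over METTL5-WT, horizontal axis) of IGF2BP3 (purple) and IGF2BP1 (green) in input, RPF and TE under each processing setting (vertical axis), with SE bars and filled points where the adjusted p was under 0.05. IGF2BP3 changes lie right of 0 under every setting shown, its RPF point is open without the variance trend, without WT replicate 2 and without KO replicate 1, and no IGF2BP1 point is filled.

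IGF2BP2, the third gene of the family and no member, was the lowest of the 3 and fell in input and RPF. It had 109 and 120 input reads in METTL5-WT against 24 and 30 in METTL5-KO, and 12 and 17 against 8 and 7 RPF reads from deeper METTL5-KO libraries. Per kb of exon its input level was 1.96 ± 0.197 CPM in METTL5-WT and 0.362 ± 0.00874 in METTL5-KO (SD, n = 2), under that of both members. It fell by 2.44 ± 0.29 in input on the log2 scale (SE, edgeR adjusted p = 1.35e-06) and by 1.73 ± 0.40 in RPF (SE, limma adjusted p = 0.00373). Its log2 TE, -1.38 and -1.32 in METTL5-WT against -0.58 and -0.95 in METTL5-KO, differed by 0.62 ± 0.57 (SE, limma adjusted p = 0.549) and was not called.

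The messages that IGF2BP proteins are reported to bind were called at counts near the share over all genes. ACTB, MYC, CD44, BTRC, SRF and MAPK4, 6 genes in all, were tested. In input 0 were higher and 1 lower, with a median log2 fold change of 0.07 beside -0.0043 over all genes. In RPF 1 was higher and 1 lower, with a median of -0.20 beside 0.02. In TE 0 were called by limma, with a median of -0.36 beside 0.02. Over all genes 22.4% were called in input, 29.3% in RPF and 4.79% in TE, so these counts are near the background. MAPK4, an atypical MAP kinase, fell by 0.50 ± 0.11 in input (SE, edgeR adjusted p = 0.00260) and by 1.15 ± 0.14 in RPF (SE, limma adjusted p = 1.60e-05). The MAPK4 input call was lost without METTL5-WT replicate 1 (adjusted p = 0.181) or replicate 2 (adjusted p = 0.110). ACTB, cytoplasmic actin, rose in RPF by 0.51 ± 0.13 (SE, limma adjusted p = 0.00664). That call was lost under quantile normalization (0.07, adjusted p = 0.705) and without METTL5-WT replicate 2 (adjusted p = 0.0829).

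Other fetal liver and hepatoma genes were mixed. Of 15 in the list, 5 had at most 3 reads in every input library and 8 were tested, of which 2 were higher and 4 lower in input. Over all genes 11.8% were called higher in input and 10.6% lower. The list median was -0.42 in input, beside -0.0043 over all genes, and -0.14 in RPF, beside 0.02. SOX9, a factor of liver progenitors and bile ducts, had 6 and 8 input reads in METTL5-WT against 50 and 63 in METTL5-KO. It rose by 2.63 ± 0.47 in input (SE, edgeR adjusted p = 0.000207) and by 2.44 ± 0.45 in RPF (SE, limma adjusted p = 0.000650). HMGA2, a fetal chromatin protein, had 0 and 1 reads in METTL5-WT against 33 and 19 in METTL5-KO. The ratio of its summed counts per library total was 40.7 (exact 95% interval 7.00 to 1640, counting error only), with an edgeR adjusted p = 0.000449. SALL4, an embryonic zinc finger factor, had 180 and 195 input reads in METTL5-WT against 90 and 95 in METTL5-KO and fell by 1.37 ± 0.21 in input (SE, edgeR adjusted p = 3.57e-05). It had 43 and 30 RPF reads in METTL5-WT against 34 and 27 in METTL5-KO and fell in RPF by 1.14 ± 0.31 (SE, limma adjusted p = 0.0115). The SALL4 call in RPF was lost without METTL5-WT replicate 1 (adjusted p = 0.126), without METTL5-KO replicate 2 (adjusted p = 0.139) and with the RPF libraries alone (adjusted p = 0.0518). PEG10, an imprinted gene of hepatomas, had 5271 and 5331 input reads in METTL5-WT against 5389 and 5737 in METTL5-KO and was not called. HMGA2 was not in the footprint table.

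The IGF2 locus was read through its partner and its neighbours, which were looked at after the values were seen in the case of H19. H19 had 7094 and 6682 input reads in METTL5-WT against 3573 and 5029 in METTL5-KO, next to IGF2 with 0 in its unshared exon bases. H19 fell by 1.05 ± 0.12 on the log2 scale (SE, edgeR adjusted p = 5.30e-07). The 40 tested genes around IGF2 on chromosome 11, 20 on each side from 790475 to 3855509, had a median input log2 fold change of 0.48. Of these, 19 were called higher and 1, H19 itself, lower, against 11.8% higher and 10.6% lower over all genes. Higher and lower calls were 6 and 9 around ALB and AFP, 7 and 4 around TTR and 1 and 6 around GPC3. They were 7 and 0 around IGF2BP1 and 3 and 4 around IGF2BP3. Neighbour medians were -0.13 around ALB and AFP, 0.14 around TTR, -0.07 around GPC3, 0.09 around IGF2BP1 and -0.05 around IGF2BP3.

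Genes that receive or carry IGF2 were mostly not called. Of 13 genes of the IGF axis, 9 were tested in input, where 22.4% of all genes were called. Of the 9, 0 were higher and 1 lower, with a median of -0.13. In RPF 10 were tested, with 0 higher and 3 lower and a median of -0.30 beside 0.02 over all genes. Of all genes, 16.2% were called higher and 13.1% lower in RPF, and 29.3% in either direction. The count was near the share in either direction, but all 3 calls were lower. So small a list was not tested against these shares. IGFBP3, which binds IGFs outside the cell, had 3860 and 3355 input reads in METTL5-WT against 1482 and 1682 in METTL5-KO. It fell by 1.54 ± 0.12 in input (SE, edgeR adjusted p = 8.58e-10) and by 1.34 ± 0.12 in RPF (SE, limma adjusted p = 3.34e-07). IGF1R, the receptor through which IGF2 signals, fell in RPF by 0.54 ± 0.10 (SE, limma adjusted p = 0.00111). IGFBP4 fell in RPF by 0.55 ± 0.15 (SE, limma adjusted p = 0.00954), and lost the call without the variance trend (adjusted p = 0.0660), with the GC trend removed (adjusted p = 0.0570), without METTL5-WT replicate 1 (adjusted p = 0.0717) and without METTL5-KO replicate 1 (-0.33, adjusted p = 0.150). IGF2R, which clears IGF2, had 1242 and 1106 input reads in METTL5-WT against 1230 and 1529 in METTL5-KO and was not called.

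Several factors that act on the ALB and AFP promoters were near 0 as well. Of 10 regulators, 3 had at most 3 reads in every input library. FOXA3 had 0 reads in all 4, HNF4A at most 1 in any library, and FOXA2 had 1 and 2 in METTL5-WT against 0 and 3 in METTL5-KO. Of 6 regulators tested, 0 were higher and 2 lower, in input and in RPF alike, with medians of -0.11 and -0.44. Over all genes the medians were -0.0043 and 0.02. Of all genes, 22.4% were called in input, 10.6% being lower, and 29.3% in RPF, 13.1% being lower. The 2 calls were lower in each measure, and so small a list was not tested against these shares. CEBPA, an activator of ALB, had 184 and 170 input reads in METTL5-WT against 71 and 102 in METTL5-KO. It fell by 1.40 ± 0.21 in input (SE, edgeR adjusted p = 4.00e-05) and by 1.13 ± 0.32 in RPF (SE, limma adjusted p = 0.0133). ZBTB20, a repressor of AFP, had 456 and 442 input reads in METTL5-WT against 365 and 409 in METTL5-KO. It fell by 0.57 ± 0.14 in input (SE, edgeR adjusted p = 0.00493) and by 0.76 ± 0.23 in RPF (SE, limma adjusted p = 0.0199). ZBTB20 lost the input call without either METTL5-WT replicate or with the GC trend removed (highest adjusted p = 0.110) and the RPF call in 4 other settings (highest adjusted p = 0.205; -0.50 without METTL5-WT replicate 1), and CEBPA lost the RPF call with the RPF libraries alone (adjusted p = 0.0870) and without METTL5-WT replicate 2 or either METTL5-KO replicate (highest adjusted p = 0.117). ZHX2, another repressor of AFP, had 68 and 50 input reads in METTL5-WT against 42 and 90 in METTL5-KO and was not called.

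Relatives of GPC3 and their processing enzymes were split. Of 9 genes, 5 were tested in input, with 2 higher and 2 lower and a median of 0.11 beside -0.0043 over all genes. In RPF 6 were tested, with 1 higher and 2 lower and a median of -0.05 beside 0.02. Over all genes 22.4% were called in input and 29.3% in RPF, and so small a list was not tested against these shares. GPC1, a glypican, had 998 and 1091 input reads in METTL5-WT against 1676 and 2796 in METTL5-KO. It rose by 0.72 ± 0.14 in input (SE, edgeR adjusted p = 0.000481) and by 0.44 ± 0.13 in RPF (SE, limma adjusted p = 0.0185). The GPC1 input change was 0.46 without METTL5-KO replicate 2. The input call was lost without METTL5-WT replicate 1 (adjusted p = 0.0607), and the RPF call without METTL5-WT replicate 2 (adjusted p = 0.0774), without the variance trend (adjusted p = 0.122) or under quantile normalization (adjusted p = 0.0546). GPC5, another glypican, fell by 1.65 ± 0.33 in input (SE, edgeR adjusted p = 0.000649) and by 1.23 ± 0.41 in RPF (SE, limma adjusted p = 0.0335), the RPF call being lost in 5 other settings (highest adjusted p = 0.252). FURIN, the protease that cleaves GPC3, fell by 0.39 ± 0.12 in input (SE, edgeR adjusted p = 0.0236) and by 0.87 ± 0.12 in RPF (SE, limma adjusted p = 7.24e-05). Its input call was not followed through the other settings. SULF2, a heparan sulfatase, rose in input by 1.05 ± 0.33 (SE, edgeR adjusted p = 0.0241), and lost the call in 5 other settings (highest adjusted p = 0.247). No gene of these lists was called in TE by limma, and edgeR called MAPK4 alone.

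**Figure D5:**
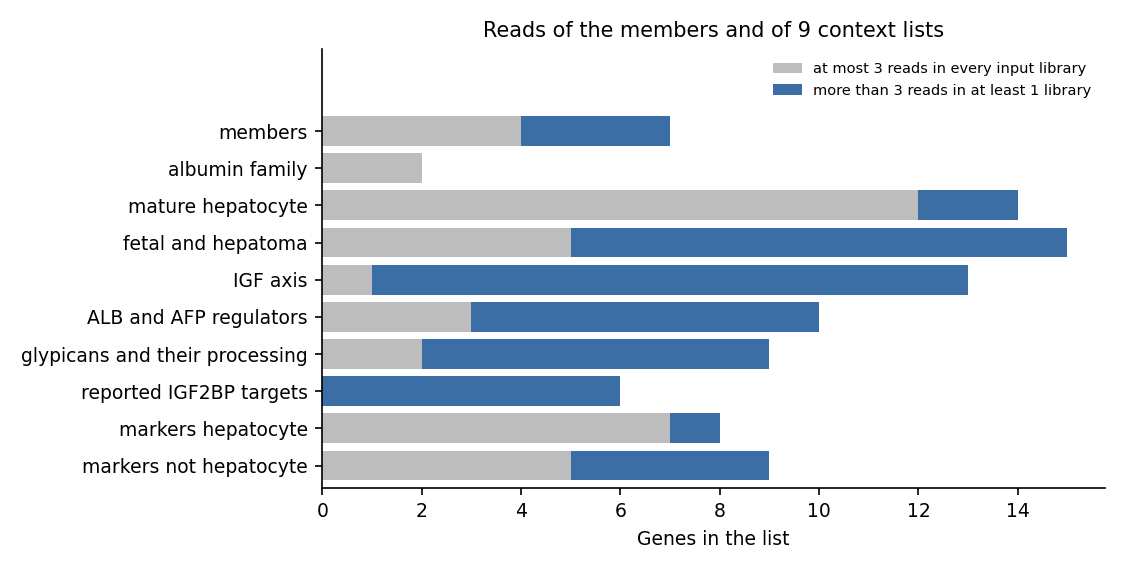
Number of genes (horizontal axis) of the members and of 9 context lists (vertical axis) with at most 3 reads in every input library (grey) and with more in at least 1 library (blue). The grey part holds 12 of 14 mature hepatocyte genes and 7 of 8 hepatocyte markers, against 5 of 15 fetal and hepatoma genes and 0 of 6 reported IGF2BP targets.

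The genes most like the 2 well-covered members were sought among 7679 genes by the Euclidean distance over 8 libraries, on log2 values centred within input and within RPF. SIK2 (distance 0.0780) and APEX1 (0.0984) were closest to IGF2BP1. TRIM4 (0.203) and KLHL15 (0.209) were closest to IGF2BP3, with RPF log2 fold changes of 0.54 (not called) and 0.63 (called). The search used these same libraries, so changes like those of the member follow from it.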

How the data were processed

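Groups and replicate numbers came from the sample titles. For input, the authors aligned reads to hg38 with STAR 2.7.3a and deposited raw counts per gene from featureCounts, uniquely mapped and by strand. The count table held 60718 genes after 3 broken lines were left out. The second table, made with RiboToolkit, holds 11244 genes with at least 1 read in every library. Its deposited values, named RPKM by the authors, were found to be a signal of whole reads divided by a size factor: 100% of values were whole reads within 0.05. A log2 fold change of TE with its p-value and adjusted p-value, also deposited by the authors, was not used, and 0 per-sample columns were left unused.

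The input test was the quasi-likelihood test of edgeR 4.0.16 after TMM scaling and filterByExpr. For RPF and TE, planned as RPKM, limma 3.58.1 was fitted over all 8 libraries to log2(value + 1), with eBayes and a variance trend, keeping genes whose mean reached 1 in input and in RPF. Fold changes on this scale understate those of low genes. The recovered reads were also tested with edgeR. A gene was called at a two-sided Benjamini-Hochberg adjusted p under 0.05. Alternatives used DESeq2 1.42.0, other filters, pseudocounts and normalizations, a replicate block and each replicate left out (R 4.3.3, Python 3.11.15). Both models were tested on simulated data. A value of 3 counts was taken as the floor. Coding length and GC came from GENCODE 44.

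The members and lists were chosen with earlier results of these data known. Named were the members, METTL5, up to 3 called genes with the largest change per list and measure, and the 2 genes most like a member with a mean of at least 100. Other genes were named after their values were seen. Some genes of the lists are not reported here.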

Additional observations from a re-analysis of the deposited data

How the results depend on the processing

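Neither IGF2BP1 in any measure nor IGF2BP3 in TE was called under any alternative. Members called in input went from 0 to 1 without METTL5-KO replicate 2 (IGF2BP3 at 0.43; range 0 to 1 and 0.17 to 0.43 with single replicates left out). Members called in RPF went from 1 to 0 without the variance trend (IGF2BP3 at 0.56) and ranged from 0 to 1, with IGF2BP3 at 0.35 to 0.78, with single replicates left out. Counts of genes called ranged from 1220 to 5474 in input, 1983 to 2773 in RPF and 4 to 265 in TE with single replicates left out. The input count was 1916 with the GC trend removed on the footprint table. The TE count was 538 in the model used, 856 with DESeq2, 1 without the variance trend and 283 with the GC trend removed. The cause was not tested. Per kb of coding length, input levels were 38.1 and 32.9 for IGF2BP1 and 39.0 and 48.2 for IGF2BP3 in METTL5-WT and METTL5-KO. With 10 genes on each side, neighbour medians were -0.019 for TTR and 0.19 for IGF2BP1.

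Replicate numbers did not pair METTL5-WT with METTL5-KO libraries. Same-numbered libraries of the genotypes deviated together with a correlation of 0.04 in input and -0.0021 in RPF over genes. Input and RPF of a number shared a lysate, and their deviations had a correlation of -0.016 in METTL5-WT and 0.053 in METTL5-KO. With a replicate block on the number, 3554 genes were called in input, 3513 in RPF and 764 in TE, and the lysate as replicate block gave 794 in TE, or 436 with the GC trend removed. No member's call changed under a block. With 2 replicates per group, a lone sample left in a group was taken to vary like the other groups. Depth limits the 5 low members: a count of 0 leaves levels under 0.196 to 0.280 CPM undetected. For IGF2 this bound holds only for reads in the 29.3% of its exon bases not shared with another gene.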
